A study of Mus musculus with 24 samples.

Results

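Messenger RNA of 9 genes that carry sugar down to pyruvate and lactate was followed in mouse liver across 4 diets. The genes were Khk, Gpi1, Tpi1, Gapdh, Pgk1, Eno1, Pklr, Ldha and Ldhb, chosen by their symbols with earlier results of these data known. Shares of these genes called are therefore not an independent test. All 9 were among the 13686 genes of the deposited count table. All 9 also passed the filter on low counts, which kept 11971 genes. The livers came from male wild-type C57BL/6 mice, a common inbred strain, after 6 weeks on chow or on a diet enriched in an oil, which was cottonseed (CSO), olive (OO) or safflower oil (SFO). Chow served as the control, and the aim stated for the series was to set the cottonseed oil diet beside the other high-fat diets. The table held 6 chow, 6 CSO, 6 OO and 5 SFO libraries, and the remaining SFO sample, which the submitters described as an outlier that may be contaminated, was not analysed here. No label gives the animals' age, the make-up of the diets beyond the oil, a batch, or a separate animal for each sample, so the p-values cover only the spread among these libraries, part of which may be technical.

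Glycolysis splits a hexose into a pair of triose phosphates and turns them into pyruvate, with net gain of ATP and NADH. Lactate dehydrogenase, a tetramer of A (Ldha) and B (Ldhb) subunits, interconverts pyruvate and lactate; the A subunit dominates in liver and fast muscle and the B subunit in heart. In liver the upper and lower ends of the pathway are set by liver forms of the enzymes, among them ketohexokinase (Khk), which commits fructose, and liver pyruvate kinase (Pklr), a classic target of the carbohydrate-responsive factor ChREBP (Mlxipl) and its partner Mlx.

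The promoters of the 4 genes on which the results turn, or which rose and fell together, are shown because short motifs can be read in them, among them the element that ChREBP and Mlx bind. Each window runs from 250 bases before to 50 bases after the annotated start, 5′ to 3′ on the gene's strand (RefSeq, build GRCm38.p6). Capitals mark the motif CACGTG, the motif ACGTG, the motif GCGTG or a carbohydrate response element, taken as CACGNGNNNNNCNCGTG; both strands were searched, and every CACGTG also holds ACGTG on either strand.
Ldha, chr7:46845554-46845853, plus strand: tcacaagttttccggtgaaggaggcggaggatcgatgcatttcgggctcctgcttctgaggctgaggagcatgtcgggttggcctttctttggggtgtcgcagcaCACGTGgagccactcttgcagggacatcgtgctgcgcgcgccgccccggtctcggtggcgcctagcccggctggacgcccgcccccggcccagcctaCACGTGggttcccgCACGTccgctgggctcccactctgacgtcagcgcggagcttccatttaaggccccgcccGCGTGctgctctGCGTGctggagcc
Ldhb, chr6:142507908-142508207, minus strand: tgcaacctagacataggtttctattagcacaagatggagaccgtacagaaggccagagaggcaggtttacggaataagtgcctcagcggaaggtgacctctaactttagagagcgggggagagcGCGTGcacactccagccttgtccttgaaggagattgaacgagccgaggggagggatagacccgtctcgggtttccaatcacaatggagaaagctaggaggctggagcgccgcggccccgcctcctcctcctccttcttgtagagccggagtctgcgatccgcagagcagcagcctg
Pklr, chr3:89136373-89136672, plus strand: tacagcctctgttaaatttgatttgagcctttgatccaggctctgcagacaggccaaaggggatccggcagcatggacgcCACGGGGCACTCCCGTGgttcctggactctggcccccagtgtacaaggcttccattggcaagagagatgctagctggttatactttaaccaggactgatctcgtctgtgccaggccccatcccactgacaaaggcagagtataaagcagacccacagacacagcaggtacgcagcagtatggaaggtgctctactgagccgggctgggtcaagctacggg
Khk, chr5:30921309-30921608, plus strand: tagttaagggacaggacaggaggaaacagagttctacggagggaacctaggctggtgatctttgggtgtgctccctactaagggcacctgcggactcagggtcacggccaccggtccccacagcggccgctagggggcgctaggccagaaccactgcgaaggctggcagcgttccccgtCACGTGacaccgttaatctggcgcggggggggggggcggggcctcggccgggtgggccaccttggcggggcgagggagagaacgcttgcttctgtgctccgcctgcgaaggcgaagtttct
The Ldha window shown holds 2 copies of CACGTG, 1 further ACGTG and 2 copies of GCGTG, and the Ldhb window holds 1 GCGTG. The Pklr window shown holds the carbohydrate response element, present in 0.0461% of 32544 promoter windows of this length. Ldha and Pklr each have another annotated start, whose window is not shown. That of Ldha (chr7:46846832-46847131) holds no CACGTG or ACGTG and 2 copies of GCGTG. That of Pklr (chr3:89135892-89136191) holds none of these motifs. The Khk window holds 1 CACGTG, found in 7.17% of these windows, against 19.7% for ACGTG and 32.6% for GCGTG. The 9 genes have 13 such windows, of which 2 hold CACGTG, 4 ACGTG, 7 GCGTG and 1 the carbohydrate response element. These are matches of letters, and no binding was measured here.

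Library totals ran from 5428649 to 14930305 counts, and libraries of the same diet correlated at r = 0.779 to 0.898 across genes. Levels are given as normalized CPM (each library's counts divided by its TMM-scaled total). The kit counts tags at the 3′ end, about 1 per transcript, so CPM was not divided by length. Differences are given on the log2 scale as fold change ± SE. They were tested by edgeR's quasi-likelihood method, and p-values were adjusted over the 11971 genes (Benjamini-Hochberg) with a threshold of 0.05. The oil diets were all compared with the same 6 chow libraries, so their differences from chow are not independent of each other. Skeletal muscle transcripts were most abundant in chow 3, chow 4, chow 5 and CSO 1, where the summed level of 30 muscle markers was 1231 to 5225 CPM. In the other 19 libraries the sum was 21.6 to 258 CPM, so muscle transcripts were low there, without being absent from all of them. The sum did not always come from the whole set: in SFO 2, at 145 CPM, 22 of the 30 markers had no count. Below, only the former 4 are called libraries with muscle transcripts, or muscle-bearing. The hepatocyte markers, 10 of 10 in the table, summed to 114737 to 159283 CPM in those 4 libraries and 132044 to 197148 CPM in the others. Library OO 3 stood apart from the rest, with a median correlation of 0.797 with the other libraries. In bulk liver, fewer cells of a type and less RNA per cell cannot be told apart.

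Ldha rose in OO and SFO livers, Ldhb fell in both, and none of the other 7 genes passed the test in any of 7 comparisons. The Ldha calls held without the 4 muscle-bearing libraries, while both Ldhb calls were lost without them (adjusted p = 0.587 in OO and 0.912 in SFO). That fit kept 3 chow libraries, and calls over all genes fell from 316 to 26 in OO and from 100 to 34 in SFO. The Ldhb changes there were -2.93 ± 1.64 in OO and -4.25 ± 1.83 in SFO, so the lost calls do not show that the difference was absent. Against chow, 2 of 9 genes were called in OO, 1 higher and 1 lower, where 2.64% of all tested genes were called (1.72% higher, 0.919% lower). In SFO the same 2 of 9 were called, where 0.835% of all genes were (0.493% higher, 0.342% lower). In CSO 0 of 9 were called by edgeR (0.409% of all genes), with 1 of 9, Ldha, at an unadjusted p under 0.05 and 1 of 9 called by DESeq2 and by limma voom. The median log2 fold change of the 9 genes was 0.05 in CSO, 0.10 in OO and -0.01 in SFO, beside -0.02, 0.07 and 0.01 over all tested genes.

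**Figure D1:**
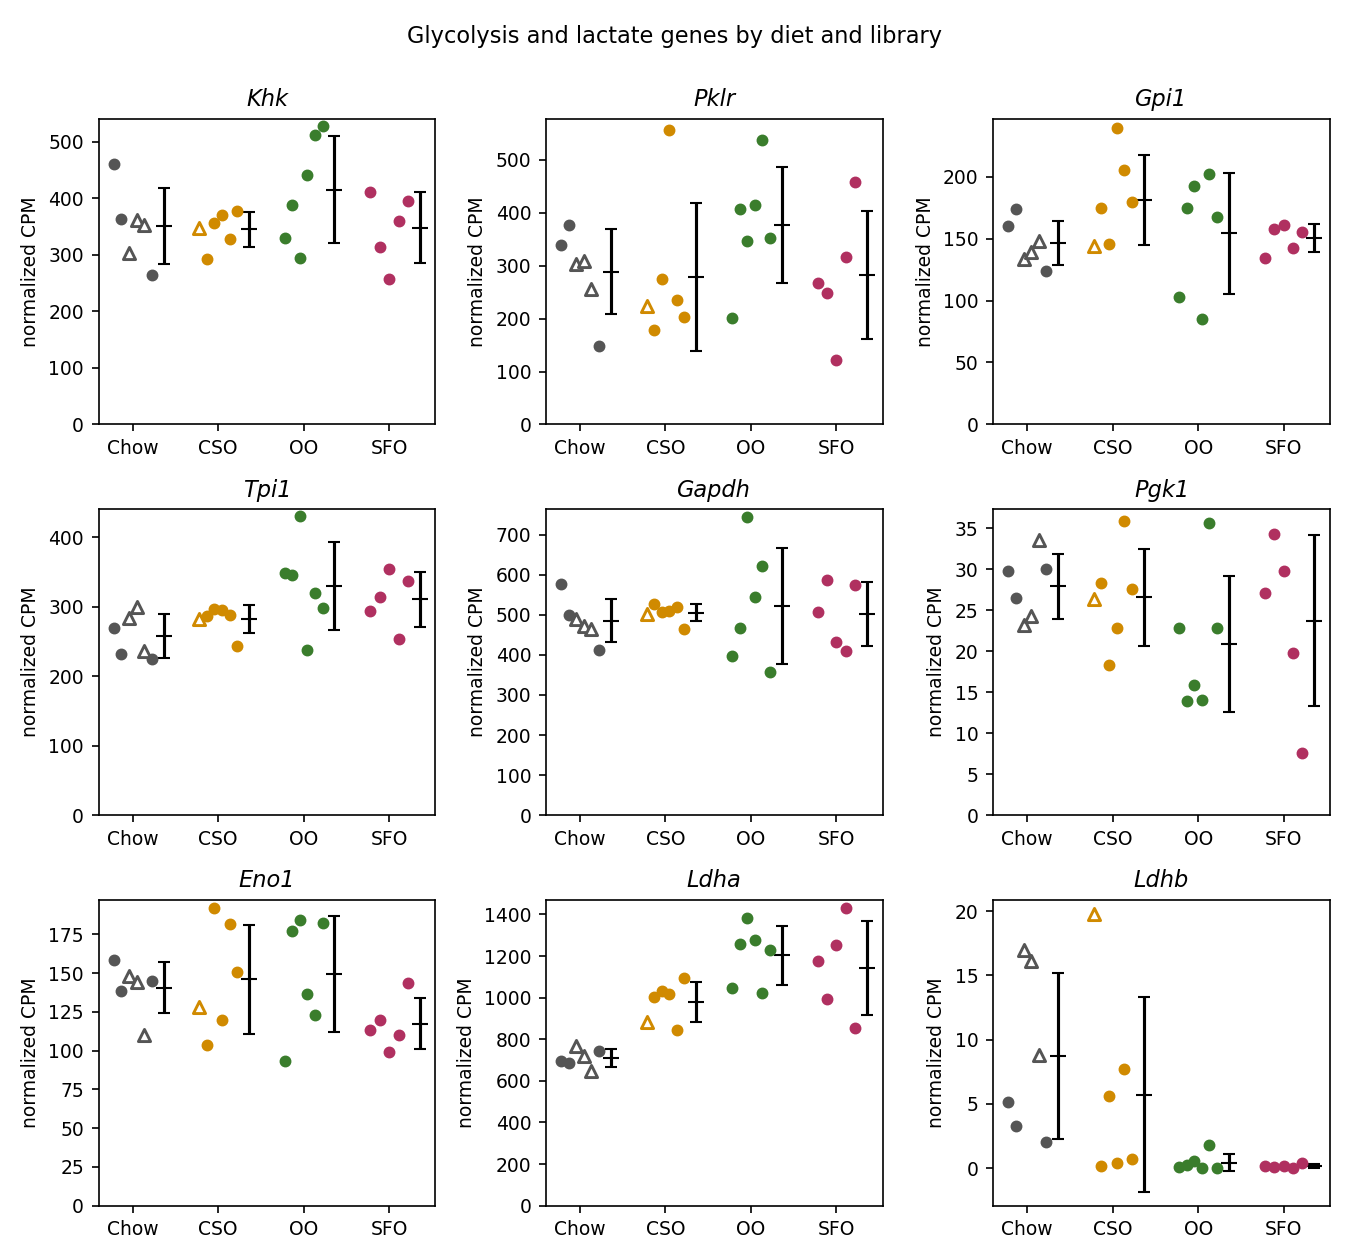
Normalized CPM of the 9 genes by diet (vertical axes, each from its own scale), one point per library, with the mean and SD of each diet in black; open triangles are the 4 libraries with muscle transcripts. All 17 oil libraries lie above the 6 chow libraries for Ldha, and the OO and SFO libraries lie below every chow library for Ldhb. The SD bar of Ldhb in CSO and OO reaches below 0, where no library lies.

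Fructose enters through ketohexokinase, and Khk was abundant, with a mean of 365 CPM over all 23 libraries. Its level was 351 ± 66.9 CPM (SD, n = 6) in chow, from 263 to 461 CPM with a median of 357 CPM. In CSO it was 345 ± 31.2 CPM (n = 6), from 292 to 377 CPM. In OO it was 415 ± 94.8 CPM (n = 6), from 294 to 527 CPM, and in SFO it was 348 ± 63.1 CPM (n = 5), from 257 to 412 CPM. The ranges of the diets overlapped. The log2 fold changes from chow were -0.02 ± 0.15 in CSO, 0.24 ± 0.15 in OO and -0.01 ± 0.16 in SFO. The 95% intervals reached from -0.33 to 0.28, from -0.06 to 0.55 and from -0.33 to 0.31, and changes within these limits are not excluded by the data.

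Glucose 6-phosphate isomerase, encoded by Gpi1, converts glucose 6-phosphate to fructose 6-phosphate. Its level was 146 ± 18.1 CPM in chow (124 to 174 CPM) and 181 ± 36.3 CPM in CSO (144 to 239 CPM). The ranges overlapped, and the log2 fold change of 0.31 ± 0.19 did not pass the test (adjusted p = 0.9996). OO libraries ran from 85.3 to 202 CPM, a wider range than the 134 to 161 CPM of SFO. In both diets the fitted change was below 0.1 (0.07 ± 0.19 and 0.04 ± 0.20).

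None of the genes of the triose steps passed the test in any diet. Triosephosphate isomerase (Tpi1), which interconverts both triose phosphates, was at 258 ± 31.2 CPM in chow, 283 ± 19.6 CPM in CSO, 330 ± 63.9 CPM in OO and 311 ± 39.6 CPM in SFO. Chow libraries ran from 225 to 300 CPM, CSO from 244 to 297 CPM, OO from 237 to 430 CPM and SFO from 254 to 355 CPM. The log2 fold change was 0.35 ± 0.14 in OO (adjusted p = 0.180), 0.27 ± 0.15 in SFO (adjusted p = 0.739) and 0.13 ± 0.14 in CSO (adjusted p = 0.9996). The ranges overlapped in each diet, and the highest library was OO 3.

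Gapdh, the dehydrogenase that makes NADH in this pathway and a common reference gene, had fitted log2 changes of 0.06 ± 0.14 in CSO, 0.10 ± 0.14 in OO and 0.05 ± 0.15 in SFO. Its mean was 486 ± 53.5 CPM in chow, 506 ± 21.8 CPM in CSO, 522 ± 146 CPM in OO and 502 ± 80.2 CPM in SFO. The CSO libraries kept within 466 to 528 CPM, while OO libraries spread from 356 to 745 CPM. Under library totals without composition scaling the sign of the OO and SFO values turned (-0.088 and -0.012).

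Phosphoglycerate kinase (Pgk1), the first step that yields ATP, was much less abundant, with a mean of 24.8 CPM against 504 CPM for Gapdh. The chow libraries ran from 23.2 to 33.6 CPM, CSO from 18.4 to 35.9 CPM, OO from 14.0 to 35.6 CPM and SFO from 7.57 to 34.3 CPM. In OO 5 of 6 libraries were under the lowest chow library and the other, OO 5, was above the highest, and the log2 fold change of -0.42 ± 0.37 did not pass the test (adjusted p = 0.640). Enolase 1 (Eno1), which makes phosphoenolpyruvate, was at 141 ± 16.3 CPM in chow, 146 ± 35.2 CPM in CSO, 150 ± 37.6 CPM in OO and 117 ± 16.5 CPM in SFO. SFO libraries ran from 99.3 to 144 CPM and overlapped the chow range of 110 to 158 CPM (log2 fold change -0.26 ± 0.20, adjusted p = 0.873). The table also lists Eno1b, a near-identical copy, so the split of counts between Eno1 and Eno1b is uncertain.

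Liver pyruvate kinase (Pklr), which makes pyruvate, had the widest spread of the 7 genes above 100 CPM, with a coefficient of variation of 37.2% over all libraries. Chow libraries ran from 148 to 377 CPM with a median of 306 CPM, and CSO libraries from 179 to 556 CPM with a median of 229 CPM. OO libraries ran from 201 to 537 CPM with a median of 380 CPM, and SFO libraries from 122 to 459 CPM with a median of 268 CPM. No diet separated from chow. The log2 fold change was -0.05 ± 0.31 in CSO, 0.38 ± 0.31 in OO (adjusted p = 0.601) and -0.03 ± 0.32 in SFO, and the OO interval reached from -0.26 to 1.02.

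**Figure D2:**
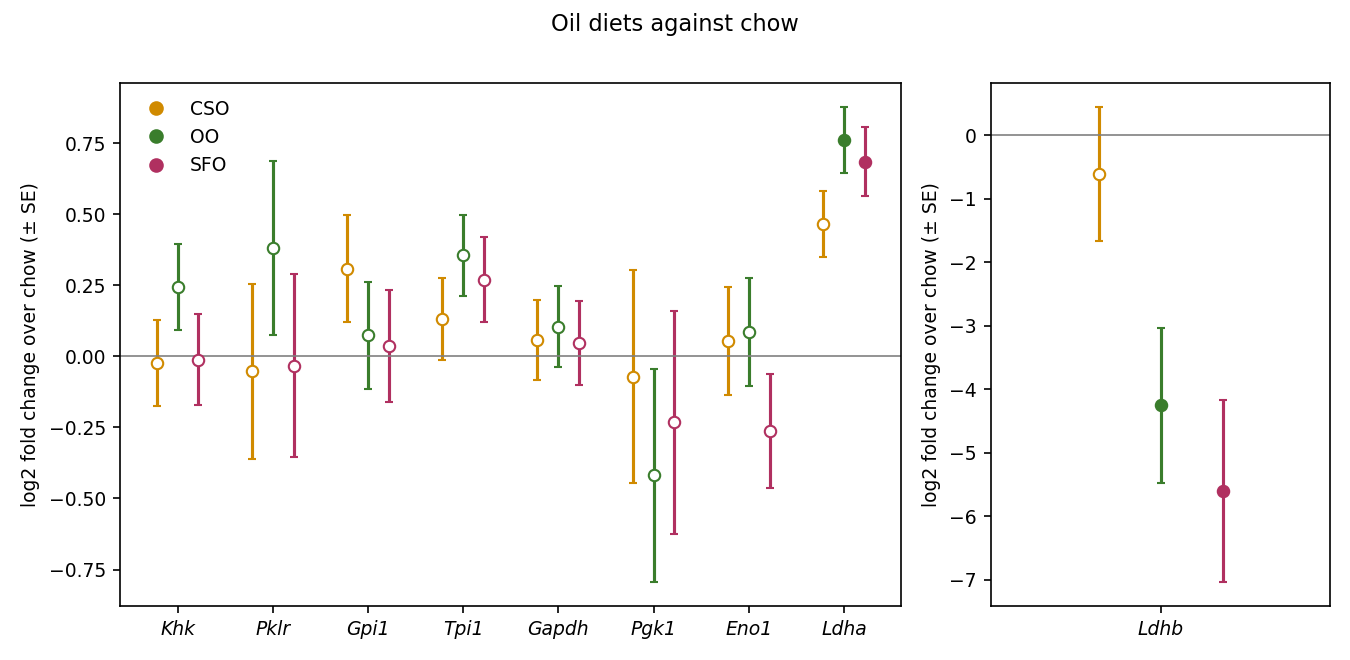
Log2 fold change over chow (vertical axis) with its SE for the 9 genes in CSO, OO and SFO; filled points passed an adjusted p of 0.05, and Ldhb has an axis of its own. Ldha in OO (0.76) and SFO (0.69) and Ldhb in OO (-4.25) and SFO (-5.60) are filled, and every other point is open.

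Ldha, the main lactate dehydrogenase subunit of liver, was the most abundant of the 9 genes (mean 1002 CPM, rank 116 among the tested genes) and every library of the 3 oil diets held more of it than every chow library. Chow libraries ran from 649 to 765 CPM with a median of 708 CPM, the narrowest range of the diets. CSO libraries ran from 843 to 1097 CPM (median 1011 CPM) and OO libraries from 1023 to 1384 CPM (median 1243 CPM). The 5 SFO libraries were at 1175, 992, 1254, 1431 and 852 CPM. Of the 11971 tested genes 10, or 0.0835%, had all 17 oil libraries above all 6 chow libraries. The libraries of a single diet were all above chow for 0.86%, 0.977% and 0.677% of genes in CSO, OO and SFO taken alone.

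The mean of Ldha was 709 ± 42.0 CPM (n = 6) in chow and 1203 ± 141 CPM (n = 6) in OO, a log2 fold change of 0.76 ± 0.12 (adjusted p = 4.81e-05). In SFO the mean was 1141 ± 225 CPM (n = 5), a log2 fold change of 0.69 ± 0.12 (adjusted p = 0.000598). In CSO the mean was 980 ± 95.9 CPM (n = 6), a log2 fold change of 0.47 ± 0.12 (adjusted p = 0.0563), with a 95% interval from 0.23 to 0.70. That CSO value passed with DESeq2 (adjusted p = 0.0116), with limma voom (0.000822), when only chow and CSO were fitted (0.00405), and in the authors' deposited table (log2 fold change 0.46, adjusted p = 0.0112). Its adjusted p rose to 0.556 without the 4 muscle-bearing libraries, and to as much as 0.200 with single libraries left out. Without the 4 libraries with muscle transcripts the changes were 0.50 ± 0.16 in CSO, 0.76 ± 0.16 in OO and 0.70 ± 0.16 in SFO, and the OO and SFO calls held (adjusted p = 0.0146 and 0.0372).

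Between the oils Ldha was highest in OO, then SFO, then CSO, and neighbours in that order did not differ beyond their spread. The log2 difference of CSO from OO was -0.30 ± 0.12 (adjusted p = 0.192, interval -0.53 to -0.06), that of CSO from SFO -0.22 ± 0.12 (adjusted p = 0.727, interval -0.47 to 0.03), and that of SFO from OO -0.08 ± 0.12 (adjusted p = 0.812, interval -0.32 to 0.17). Against the average of the OO and SFO diets the CSO value was -0.26 ± 0.10 (adjusted p = 0.343). Markers of the other cell types in liver overlapped between chow and every oil diet: 11 macrophage markers summed to 114 to 319 CPM in chow and 87.1 to 376 CPM over the oil diets. The adipocyte markers, 3 of 5 in the table, had a median sum of 9.45 CPM in chow (4.01 to 82.4 CPM), 76.4 CPM in CSO (27.3 to 168 CPM), 26.6 CPM in OO and 7.19 CPM in SFO. Of the 2 adipocyte markers tested, Fabp4 was called lower in OO, as were 0.919% of all genes, while the other had a positive fold change there. The clock genes (9 of 10 in the table) summed to 255 to 382 CPM in chow and 406 to 538 CPM in CSO, with no overlap. Of single genes, 0.86% had all CSO libraries above chow. The sum was 244 to 442 CPM in OO and 250 to 721 CPM in SFO. Of the 8 clock genes tested in CSO against chow, 5 were higher and 3 lower, and 0 were called (0.409% of all genes). Their part in the Ldha result was not tested.

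Ldhb, the heart-type subunit, was rare, with a mean of 3.93 CPM and 1019 counts over all libraries, and no OO or SFO library held more than 1.79 CPM of it. The 6 chow libraries, in the order of their numbers, held 5.15, 3.32, 17.0, 16.1, 8.79 and 2.06 CPM. The CSO libraries held 19.8, 0.173, 5.59, 0.420, 7.70 and 0.713 CPM. The OO libraries held 0.101, 0.237, 0.553, 0, 1.79 and 0 CPM, and SFO 1, 2, 3, 5 and 6 held 0.196, 0.119, 0.182, 0 and 0.379 CPM. Every OO and SFO library was under the lowest chow library, as for 0.777% of genes in OO and 0.911% in SFO, while the CSO libraries fell on both sides of the chow range. The OO libraries together held 23 Ldhb counts and the SFO libraries 7. A count of 0 still allowed up to 0.320 CPM in OO 4, 0.389 CPM in OO 6 and 0.316 CPM in SFO 5 (3 counts, counting error only).

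The Ldhb mean was 8.73 ± 6.46 CPM in chow, 5.73 ± 7.56 CPM in CSO, 0.446 ± 0.688 CPM in OO and 0.175 ± 0.138 CPM in SFO. The log2 fold change was -4.25 ± 1.22 in OO (adjusted p = 0.0449, interval -6.71 to -1.80) and -5.60 ± 1.44 in SFO (adjusted p = 0.0416, interval -8.49 to -2.71). In CSO it was -0.61 ± 1.06 (adjusted p = 0.9996, interval -2.74 to 1.52). CSO was higher than the average of the OO and SFO diets by 4.32 ± 0.98 (adjusted p = 0.0155), where 0.727% of all genes were called (0.342% higher) and 1 of the 9 genes was, as higher. With the oil diets fitted alone, Ldhb did not pass the filter on low counts. It entered the tests between oils through the chow libraries, so this call does not stand on the oil libraries alone. The single pairs did not pass: CSO was above OO by 3.65 ± 1.19 (adjusted p = 0.110) and above SFO by 4.99 ± 1.399 (adjusted p = 0.100). SFO and OO differed by -1.35 ± 1.25 (adjusted p = 0.650). In CSO against OO (1.09% of all genes called), CSO against SFO (0.493%) and SFO against OO (1.06%), 0 of 9 genes were called by edgeR. Of the 9, 2, 1 and 0 had an unadjusted p under 0.05, and DESeq2 called 1, 0 and 0. For CSO against SFO, DESeq2 gave Ldhb no adjusted p.

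As a share of Ldha and Ldhb counts together, Ldhb made up 1.198 ± 0.838% in chow, 0.626 ± 0.843% in CSO, 0.0404 ± 0.0672% in OO and 0.0175 ± 0.0164% in SFO. The share was 2.19% in CSO 1 (exact Clopper-Pearson 95% interval 1.90 to 2.51%, covering counting error only) and ran in chow from 0.277% in chow 6 to 2.18% in chow 4, which cannot be ranked apart from CSO 1. In the libraries with no Ldhb count the upper bound of the exact interval was 0.0308% in OO 4, 0.0390% in OO 6 and 0.0272% in SFO 5. Ldha thus accounted for nearly all counts of the A and B subunits in every library.

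The 4 libraries with muscle transcripts had the 4 highest Ldhb levels, at 8.79 to 19.8 CPM. Acta1, skeletal muscle actin, reached 186 to 886 CPM in the 3 chow libraries among them and 313 CPM in CSO 1. Per 1000 CPM of the 30 muscle genes these libraries held 3.08 to 8.13 CPM of Ldhb. CSO 5 had the next highest Ldhb, 7.70 CPM, with Acta1 at 0.592 CPM and the muscle sum at 26.0 CPM. CSO 3 had 5.59 CPM of Ldhb with a muscle sum of 43.5 CPM, and chow 1 had 5.15 CPM with 29.8 CPM. These 3 libraries held 296, 128 and 173 CPM of Ldhb per 1000 CPM of muscle transcripts. At the other end SFO 6 had a muscle sum of 258 CPM and 0.379 CPM of Ldhb. Ldhb was therefore found at several CPM both in libraries with muscle transcripts and in 3 libraries where these were near their lowest level.

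**Figure D3:**
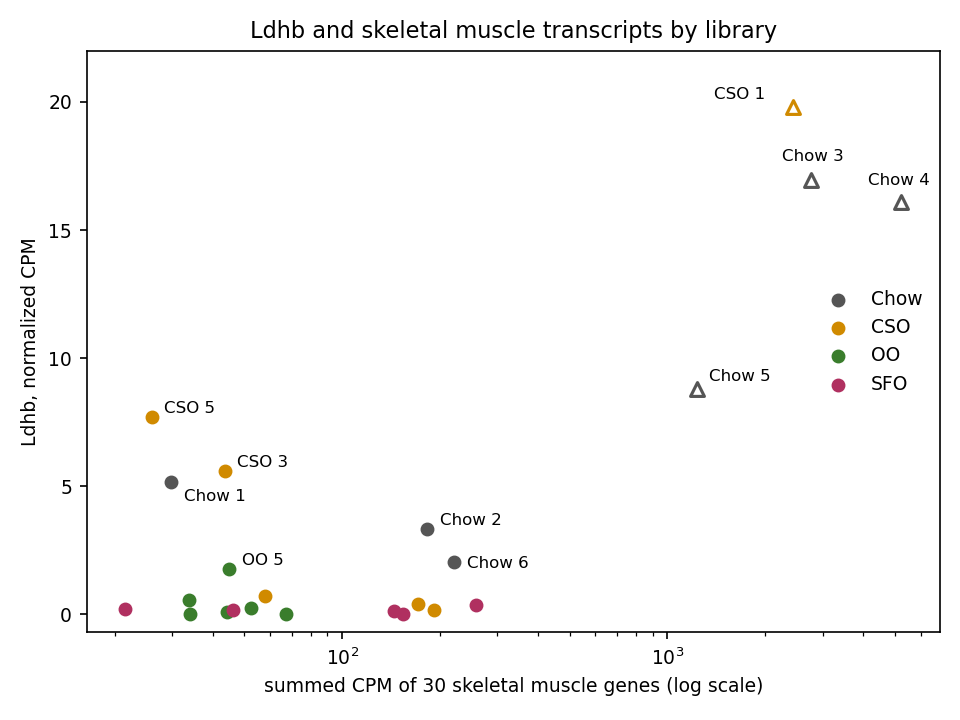
Ldhb in normalized CPM (vertical axis) against the summed CPM of 30 skeletal muscle genes on a log scale (horizontal axis), one point per library; open triangles are chow 3, chow 4, chow 5 and CSO 1. The triangles sit at the right with 8.79 to 19.8 CPM of Ldhb, and CSO 5, CSO 3 and chow 1 sit at the left with 5.15 to 7.70 CPM.

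Over the other 19 libraries, low in muscle transcripts but not all free of them, log2 Ldhb and the log2 muscle sum had a Pearson r of -0.17 (permutation p = 0.492). Spearman's rho was -0.16 (permutation p = 0.499), and both had an adjusted p of 0.499 over the 2 measures, two-sided. Without SFO 6 and chow 6, the libraries farthest from the median muscle sum, r was -0.26 (permutation p = 0.312). With each diet's mean taken off, r was -0.50 (permutation p = 0.0298) and rho -0.52 (permutation p = 0.0229), neither of them adjusted. The permutations ran over all 19 libraries rather than within diets and took no account of the means removed, so these p-values may be too small. Ldhb fell with the muscle sum in the 3 chow and 5 CSO libraries left, but in SFO the library with the highest sum, SFO 6, also had the highest Ldhb, and OO showed no such order. With Acta1 alone in place of the sum, r was 0.16 (permutation p = 0.508). The sum is an uneven measure of muscle in these 19 libraries. SFO 2, at 145 CPM, had 22 of the 30 markers at 0 and Acta1 at 0.119 CPM. CSO 4, at 171 CPM, had 5 at 0 and Acta1 at 10.4 CPM. These correlations therefore cannot tell how Ldhb went with muscle content. The 4 libraries with muscle transcripts form a cluster of their own and were not pooled with the rest.

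Without these 4 libraries Ldhb was at 3.51 ± 1.55 CPM in chow (n = 3) and 2.92 ± 3.49 CPM in CSO (n = 5), and the 3 chow libraries were still above every OO and SFO library. The log2 fold change was then -2.93 ± 1.64 in OO (adjusted p = 0.587) and -4.25 ± 1.83 in SFO (adjusted p = 0.912), and CSO was above the average of the OO and SFO diets by 3.32 ± 1.25 (adjusted p = 0.411). None of the 3 Ldhb calls held. The OO call was also lost without any 1 of chow 1 to 5, CSO 1, 3 and 5, or OO 1, 2, 3, 4 and 6, with fold changes of -5.56 to -3.95 and adjusted p up to 0.105 over all libraries left out in turn. The SFO call was lost without any 1 of chow 1 to 5, CSO 1 and 3, or any SFO library (-5.99 to -5.28, adjusted p up to 0.135). The call of CSO against the average of the OO and SFO diets was lost without CSO 1 (3.35, adjusted p = 0.201).

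Of the enzymes with a form found in muscle, 3 were looked at in the same libraries, chosen after their values were seen. Pkm, the pyruvate kinase of muscle and other tissues, was at 47.1 ± 29.96 CPM in the 4 libraries and 13.3 ± 9.51 CPM in the other 19. Aldoa, the muscle aldolase, was at 156 ± 51.2 against 90.7 ± 23.4 CPM, and Pgam2, the muscle phosphoglycerate mutase, at 16.7 ± 13.9 against 0.382 ± 0.618 CPM. By contrast Pklr was at 273 ± 40.3 CPM in the 4 libraries and 315 ± 124 CPM in the other 19, and Gapdh at 482 ± 17.5 and 509 ± 91.0 CPM. Among the 82 tested genes of 7 lists of sugar metabolism, the 2 falls called in OO were in genes of this kind. Pgam2 had 1 count over the 6 OO libraries (log2 fold change -8.23 ± 1.88, adjusted p = 0.0112), and Hk2, the hexokinase of muscle and fat, was at 0.554 ± 0.640 CPM (-4.47 ± 1.24, adjusted p = 0.0397). Without the 4 libraries Pgam2 was at -0.95 ± 2.04 and Hk2 at 1.01 ± 1.60, and neither was called.

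In CSO and OO more of the surrounding genes of sugar metabolism were called higher than lower. Their lists were also chosen with earlier results of these data known, so the shares of all genes beside them are no independent test. In CSO 4 of the 82 were called higher (0.209% of all genes) and 0 lower, in OO 8 were called higher and 2 lower (1.72% and 0.919% of all genes), and in SFO 0 were called by edgeR (0.835% of all genes), with 9 at an unadjusted p under 0.05, 1 called by DESeq2 and 0 by limma voom. The median log2 fold change of the 82 was 0.11, 0.12 and -0.09. In OO its sign turned with library totals (-0.053, with 5 called higher and 3 lower) and with limma voom (-0.039, with 6 higher and 0 lower). Without the 4 libraries with muscle transcripts, which leaves 3 chow libraries, 0, 1 and 0 were called. Apart from Hk2 and Pgam2, the fold changes of the called genes moved by less than their SE: Gbe1 was then at 1.03 ± 0.27 in CSO and 0.95 ± 0.26 in OO, Pcx at 0.62 ± 0.19 and 0.65 ± 0.19, Slc16a12 at 1.08 ± 0.33 in CSO and Ppp1r3c at 2.30 ± 0.65 in OO. With each of the 23 libraries left out in turn, the calls of Gbe1 in both diets and of Ugp2, Srebf1, Pgam2 and Pcx in OO held in all 23 fits. Those of Pcx, Slc16a12 and Gpt2 in CSO held in 16, 14 and 12 fits (adjusted p up to 0.103, 0.129 and 0.176), and those of Glyctk, Pgm1 and Hk2 in OO in 10, 9 and 15 (adjusted p up to 0.137, 0.116 and 0.154).

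Of the glycogen list, 4 of 10 genes rose in OO (1.72% of all genes) and 1 of 10 in CSO (0.209%). Gbe1, the branching enzyme, went from 92.9 ± 18.9 CPM in chow to 184 ± 38.4 CPM in CSO (log2 fold change 0.99 ± 0.20, adjusted p = 0.00601) and 182 ± 54.0 CPM in OO (0.97 ± 0.20, adjusted p = 0.00420). In OO, Ugp2, which makes UDP-glucose, rose by 0.75 ± 0.15 (adjusted p = 0.00318). Ppp1r3c, a glycogen-targeting phosphatase subunit, rose by 1.98 ± 0.45 (adjusted p = 0.0139), and by 1.498 without OO 3, where it missed the threshold (adjusted p = 0.0503). Pgm1, which links glucose 1-phosphate and 6-phosphate, rose by 0.52 ± 0.15 (adjusted p = 0.0470). The gluconeogenesis list gave 1 call of 7 in CSO, 1 in OO and 0 in SFO: Pcx, pyruvate carboxylase, was higher by 0.60 ± 0.14 in CSO (adjusted p = 0.0287) and by 0.64 ± 0.14 in OO (adjusted p = 0.00595).

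Of the pyruvate and lactate list, 2 of 21 genes rose in CSO (0.209% of all genes) and 0 in OO (1.72%). Gpt2, the mitochondrial alanine transaminase that interconverts pyruvate and alanine, was at 522 ± 66.6 CPM in chow and 744 ± 62.9 CPM in CSO (0.51 ± 0.13, adjusted p = 0.0428). Every CSO library, at 662 to 828 CPM, was above every other library, the highest of which was at 617 CPM in OO 6. How many of all genes separate in this way was not counted. Slc16a12, on this list as a member of the monocarboxylate transporter family, went from 55.9 ± 9.43 to 113 ± 20.1 CPM (1.01 ± 0.24, adjusted p = 0.0333). What Slc16a12 carries was not measured, and carriage of lactate or pyruvate is not implied. Its CSO libraries were all above the highest chow library, as for 0.86% of all genes. Of the fructose list 1 of 7 genes rose in OO (1.72% of all genes): Glyctk, glycerate kinase, by 0.61 ± 0.18 (adjusted p = 0.0448). The hexose entry list had 0 of 9 called in CSO, with Slc2a2, the liver glucose carrier, at 0.33 ± 0.16.

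Of the 11 regulators, 2 rose in OO (1.72% of all genes) and 0 in CSO (0.209%) or SFO (0.493%). Srebf1, a driver of lipogenic genes under insulin, rose from 161 ± 37.9 CPM to 418 ± 116 CPM in OO (1.37 ± 0.23, adjusted p = 0.000787), and was still called with the 4 muscle-bearing libraries left out (adjusted p = 0.0445). Mlx rose by 1.60 ± 0.39 (adjusted p = 0.0173); OO 3 was at 122 CPM against a median of 37.5 CPM in OO, and without it the change was 1.13 (adjusted p = 0.0922), and without chow 4 it was 1.42 (adjusted p = 0.0522). Mlxipl itself was lower in CSO than in the average of the OO and SFO diets (-0.82 ± 0.18, adjusted p = 0.0124), at 216 ± 45.9 CPM in CSO, 370 ± 86.3 CPM in OO and 392 ± 137 CPM in SFO. Pklr, whose promoter window shown above holds the response element, differed by -0.23 ± 0.27 in the same comparison (adjusted p = 0.894). In that comparison 4 of the 82 genes were called. The others were Gpt2 (0.56 ± 0.11, adjusted p = 0.00210) and Gys2, liver glycogen synthase (0.81 ± 0.19, adjusted p = 0.0273), both higher in CSO, and Ppp1r3c, lower (-2.36 ± 0.43, adjusted p = 0.00170). The Mlxipl call was lost without CSO 5 or CSO 6 (adjusted p = 0.0546 in both), and that of Gys2 without any 1 of CSO 3, 4, 5 and 6 or OO 1, 3 and 5 (adjusted p up to 0.0796).

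**Figure D4:**
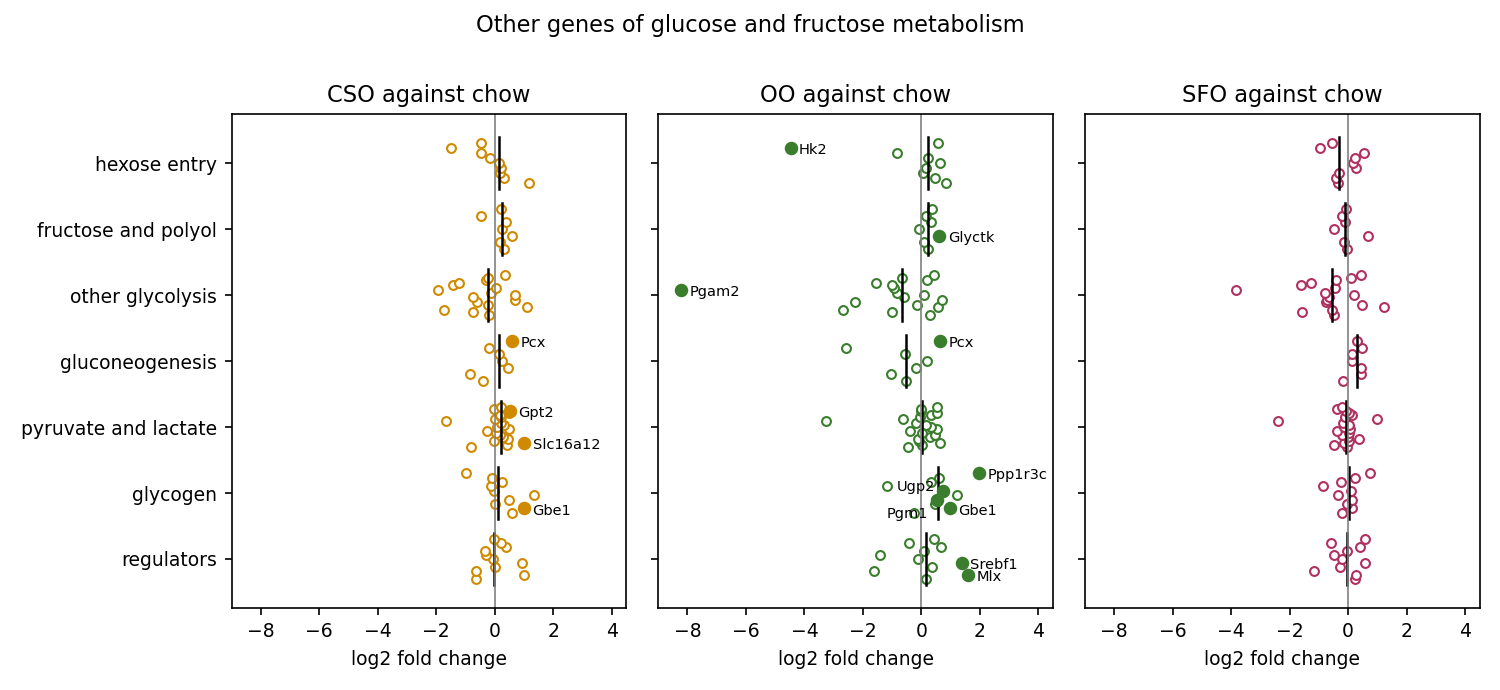
Log2 fold change over chow (horizontal axis) of 82 other genes of sugar metabolism in 7 lists (rows) for CSO, OO and SFO; filled, named points passed an adjusted p of 0.05 and black bars are list medians. Filled points lie to the right in CSO (4 genes), on both sides in OO (8 to the right, Hk2 and Pgam2 to the left) and nowhere in SFO.

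The 9 genes did not move as a block over the 23 libraries. Pearson's r of log2 CPM between 2 of them ran from -0.76 (Ldha and Ldhb) to 0.70 (Khk and Pklr), as a description over libraries that share diets. Khk and Pklr rank each other among their 3 closest genes of 5692 candidates, while Pklr and Pgk1 were at -0.44. The genes closest to Ldha were C4b (r = 0.83), Fn1 (0.81) and Apoa4 (0.81), and those closest to Ldhb were Tsku (0.74), Hspb6 (0.70) and Ephx1 (0.68). Those closest to Tpi1 were Aspscr1 (0.75), Pccb (0.72) and Sf3b1 (0.71), and those closest to Pklr after Khk were Cyp27a1 (0.66) and Fdps (0.64). Usp34 (0.71) and S100a10 (0.69) stood beside Pklr for Khk. For Gapdh the closest were Dcun1d5 (0.80), Afg3l1 (0.73) and Cyp2d22 (0.72), and for Pgk1 they were Dgkq (0.83), Mrps30 (0.80) and Babam2 (0.78). Gpi1 had Uri1 (0.75), Coq10b (0.73) and Atic (0.72), and Eno1 had A1cf (0.73), Tomm22 (0.68) and Ddah1 (0.67).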

How the data were processed

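Liver RNA was sequenced from the 3′ end (QuantSeq, per the labels). Per the submitters' processing notes, Trimmomatic, STAR 2.7.1a, HTSeq 0.9.1, DESeq2 and DESeq were used with mm39. The authors deposited raw counts per gene for 23 libraries of 24 labelled samples. Their deposited tables also hold a mean signal, a log2 fold change with its error, a score (the Wald statistic) and p-values; signs were turned to oil over chow. Strand setting: not given in the sources used here. Named copies of Ldha (2), Gapdh (2) and Pgk1 (3) exist in the annotation and none is in the table, so their counts may include or lack shared reads.

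edgeR 4.0.16 in R 4.3.3 (limma 3.58.1, DESeq2 1.42.0 as alternatives) fitted the 4 diets together with TMM, filterByExpr and the robust quasi-likelihood F test. Log2 CPM used a prior count of 2. Correlations used 100000 permutations (SciPy 1.17.1). The steps were tested on simulated data. Promoters were matched by symbol only, since the counts use another build. Named were all 9 genes; the called genes of each list, up to 4 with the smallest adjusted p, or where no gene was called, its 2 most expressed genes at most; and the 3 genes closest to each of the 9 among genes whose mean log2 CPM reached 4. The genes and lists were chosen with earlier results of these data known. Some genes that this rule names are not reported here.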

Additional observations from a re-analysis of the deposited data

Results flagged for a closer look

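Of 36 groups of a gene and a diet, 3 held a library set apart from the others by Dixon's ratio of the gap to the range, which chance alone gives in about 1 in 20 groups. Pklr was at 556 CPM in CSO 4 (ratio 0.745), Tpi1 was lowest at 244 CPM in CSO 6 (ratio 0.737), and Ldhb was highest at 1.79 CPM in OO 5 (ratio 0.690).

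Between the oil diets, 5 named genes passed the test of CSO against the average of the OO and SFO diets (edgeR). Ldhb was higher in CSO by 4.32 on the log2 scale, Gpt2 by 0.56 and Gys2 by 0.81. Mlxipl differed by -0.82 and Ppp1r3c by -2.36. Ldhb alone among them was no longer called once the 4 muscle-bearing libraries were left out. Ldhb also passed the filter on low counts only with chow in the fit.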

How the results depend on the processing

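Ldha kept its direction against chow under every setting and library left out, and its OO and SFO calls were lost only where a change of at least 1 on the log2 scale was asked as well. The CSO change of Ldha also passed without OO 3, OO 5, SFO 2, SFO 5 or SFO 6 (adjusted p from 0.0372 to 0.0483). Ldhb kept its direction against chow in all 3 oil diets and between CSO and the average of the other oils. The count of 0 of the 9 genes called in CSO became 1 with DESeq2, with limma voom, with only the diets of the comparison and without OO 3 (0 to 1 over libraries left out). The count of 2 in OO became 1 with the fold threshold, limma voom, a fit of chow and OO alone, the replicate block, and without OO 3 or the 4 libraries with muscle transcripts (1 to 2 over libraries left out). The count of 2 in SFO became 1 with the fold threshold, limma voom, the replicate block and without the 4 libraries (1 to 2). CSO against OO went from 0 to 1 with DESeq2 (0 to 1), and CSO against the average of the OO and SFO diets from 1 to 0 with DESeq2, limma voom, a fit of the oils alone, the replicate block and without the 4 libraries (0 to 1). For that comparison Ldhb had no adjusted p with DESeq2. It was not tested with only the diets of the comparison, where it did not pass the filter on low counts.

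Replicate numbers are shared by the diets, but same-numbered libraries did not deviate together (r from -0.101 to 0.0346), so the number does not pair them. With the replicate block Ldhb missed the threshold in OO (-4.76, adjusted p = 0.0527), SFO (-5.39, adjusted p = 0.128) and CSO against the average of the OO and SFO diets (3.64, adjusted p = 0.147).

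Values near 0 turned sign, as did 1 called value, Hk2 in OO (-4.47), and the cause was not tested. Library totals moved the median of all genes in OO from 0.07 to -0.12, and gave -0.11 for Gpi1, -0.10 for Eno1 and -0.088 for Gapdh in OO, -0.022 for Gpi1 and -0.012 for Gapdh in SFO, and 0.063 for Ldha in SFO against OO. Limma voom gave 0.0060 for Khk in CSO, -0.014 for Gapdh in SFO and 0.012 for Ldha in SFO against OO. Khk in SFO was at 0.0039 with DESeq2 and with its size factors and at 0.0014 with only the diets of the comparison, and Pklr in SFO at 0.032 with the replicate block. Without OO 3, Gpi1 and Gapdh in OO were at -0.00056 and -0.024. Without the 4 libraries Pklr in CSO was at 0.0034, Gpi1 in SFO at -0.016 and Hk2 in OO at 1.01. With single libraries left out, values in CSO ran from -0.37 to 0.047 for Pklr, -0.041 to 0.13 for Eno1, -0.18 to 0.015 for Pgk1 and -0.094 to 0.070 for Khk. In OO they ran from -0.020 to 0.20 for Gpi1 and -0.024 to 0.20 for Gapdh. In SFO they ran from -0.28 to 0.16 for Pklr, -0.0073 to 0.090 for Gpi1, -0.0061 to 0.11 for Gapdh and -0.083 to 0.081 for Khk, and for Ldha in SFO against OO from -0.17 to 0.013. The r of Ldhb with the muscle sum over 19 libraries was 0.16 with Acta1 alone (permutation p = 0.508) and -0.50 as deviations from diet means; leaving out SFO 6 and chow 6 was chosen after the data were seen.

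Calls over all genes in CSO, OO and SFO against chow were 49, 316 and 100, against 98, 686 and 187 with DESeq2, 206, 116 and 122 with limma voom, 198, 122 and 109 with only the diets of the comparison, and 14, 26 and 34 without the 4 libraries. Of the calls in OO 206 were higher and 110 lower, and with library totals 62 and 162. Depth limits Ldhb: at 0 to 16 counts per OO or SFO library its fold change depends on few counts.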

Other observations

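Slc2a2, the liver glucose carrier, did not pass against chow in any diet but differed between the oils. It was at 247 ± 48.8 CPM (n = 5) in SFO, 411 ± 55.4 CPM (n = 6) in CSO and 447 ± 105 CPM (n = 6) in OO, beside 327 ± 63.1 CPM in chow. CSO was above SFO by 0.73 ± 0.17 on the log2 scale (edgeR's quasi-likelihood test, adjusted p = 0.0218), and SFO was below OO by -0.85 ± 0.17 (adjusted p = 0.00830). Gbe1 was likewise higher in CSO than in SFO (0.86 ± 0.21, adjusted p = 0.0391) and lower in SFO than in OO (-0.84 ± 0.21, adjusted p = 0.0340). Ugp2 was higher in OO than in SFO and CSO, with SFO at -0.64 ± 0.16 (adjusted p = 0.0324) and CSO at -0.78 ± 0.15 (adjusted p = 0.00280). Of 23 fits with 1 library left out, the Slc2a2 calls held in 18 for CSO against SFO (adjusted p up to 0.128, lost without CSO 3, 4 or 6 or SFO 1 or 5) and in 23 for SFO against OO. Those of Gbe1 held in 13 (lost without chow 5, CSO 3, 4, 5 or 6, or any SFO library) and 16 (lost without OO 2, 3 or 4 or SFO 1, 2, 3 or 5), with adjusted p up to 0.137 and 0.0873. Those of Ugp2 held in 19 for SFO against OO (lost without OO 3 or SFO 1, 3 or 5) and in 23 for CSO against OO. When only SFO and OO were fitted, none of Slc2a2, Gbe1 and Ugp2 was called between them (adjusted p = 0.113, 0.301 and 0.301). Without the 4 muscle-bearing libraries the calls of Slc2a2 and Gbe1 between CSO and SFO and of Gbe1 and Ugp2 between SFO and OO were also lost, with fold changes of 0.74, 0.91, -0.83 and -0.64 and adjusted p from 0.0530 to 0.0778. No explanation of these values was tested.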
